A study of Mus musculus with 12 samples.

Results

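Acinar cells make and secrete the digestive enzymes of the pancreas. In acinar-to-ductal metaplasia (ADM) they lose that enzyme programme and take on features of duct cells, a change known from injured pancreas and from the early steps of pancreatic cancer. Embryonic acinar cells are building the same programme, so the comparison of ADM culture with embryonic acinar cells sets cells that leave the acinar state beside cells that enter it. The RNA of 3 ADM cultures was compared with that of 3 samples of embryonic acinar cells, 6 of the 12 Affymetrix arrays of a mouse pancreas study. The 22180 genes tested were those with a probe set that carried exactly 1 gene symbol, each read from its brightest probe set over all 12 arrays.

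All samples carry the strain label C57Bl6/J wildtype, with no other allele named. The embryonic acinar cells were isolated by digestion and their RNA was extracted directly, without culture. The ADM samples were kept for 7 days in 3D collagen and were treated with Tgf-alpha at 50 ng/ml, which activates the receptor of epidermal growth factor (EGF). Adult acinar cells, also freshly isolated, and low-passage tumor cells grown in standard medium made up the other 6 arrays. They entered the estimate of the spread, and adult levels are given here as context. The labels give no embryonic age, no sex and no statement that replicates came from separate animals or cultures, so p-values measure only the spread between these arrays. ADM and embryonic samples differ at the same time in age, culture, collagen, ligand and the signal of Y chromosome genes (given below), and these cannot be told apart.

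A total of 2091 of the 22180 genes (9.43%) passed the test, which means a Benjamini-Hochberg adjusted p under 0.05 in limma and a log2 change of at least 1 in size. ADM culture was higher in 1008 genes (4.54%) and lower in 1083 (4.88%), and the median log2 change of all genes was 0.0033. The 3 ADM arrays lay wholly above or below the 3 embryonic arrays in 8330 genes (37.6%), so arrays that do not overlap are common. All changes are ADM minus embryonic on the log2 scale, ± the standard error (SE) of the fit with n = 3 arrays per group, and values after "ADM" or "embryonic" are the log2 signals of replicates 1, 2 and 3. The background level was 3.62, and 95% of group means lay under it for 1396 receptor genes of smell (olfactory and vomeronasal). At or below it in both groups were 8650 genes. Where the dimmer group was at or below this level, a bound of the form "at least N-fold" was computed against it.

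**Figure D1:**
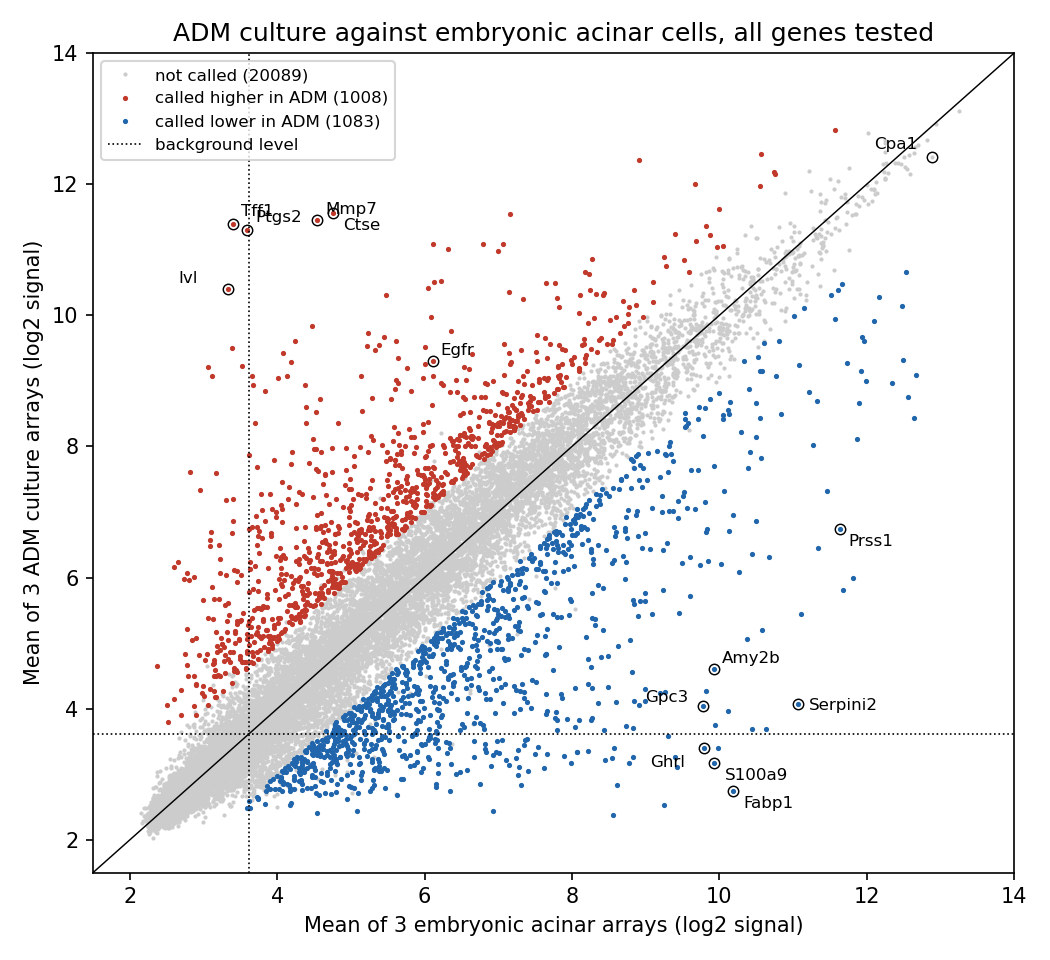
Mean log2 signal of each gene over the 3 ADM arrays (vertical axis) against its mean over the 3 embryonic arrays (horizontal axis), with the 1008 genes called higher in ADM culture in red, the 1083 called lower in blue and the others in grey. The diagonal marks equal means and the dotted lines the background level of 3.62; Tff1, Ptgs2 and Ivl rise from background in embryonic cells to over 10 in ADM culture, and Cpa1 lies close to the diagonal.

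The split between higher and lower depended on what was held constant. Centring each array on 14 housekeeping genes gave 575 higher and 2021 lower calls, 22.2% higher against 48.2% as deposited, and shifted the median of all genes to -0.38. Centring on the array medians of ribosomal protein genes gave 3107 higher and 568 lower calls, 84.5% higher, with a median of 0.55. The ribosomal protein genes themselves then had a median change of 0.385, against -0.16 as deposited. The alternative was to remove, in place of the array median, the median deviation of the same genes from their own means. The housekeeping genes then gave 595 higher and 1928 lower calls (23.6% higher, median -0.35). The ribosomal protein genes gave 1379 higher and 828 lower (62.5% higher, median 0.18). No gene called as deposited was called in the opposite direction under any of these scalings. Counts for gene lists below are for the values as deposited, and scalings that moved a larger count by over 1.5 times are named beside it. Counts of 1 to 3 often changed with the scaling.

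The embryonic arrays differed among themselves more than the ADM arrays did. Correlations across genes were 0.979 to 0.984 between embryonic arrays, 0.988 to 0.991 between ADM arrays and 0.919 to 0.93 between the groups. Among genes above background in their group, a range of at least 2 on the log2 scale over the 3 arrays was found for 139 genes in embryonic cells and for 31 in ADM culture. In 76 of the 139, embryonic replicate 3 was the array farthest from the middle one and higher, and in 32 replicate 1 was farthest and lower.

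The genes with the widest embryonic range, chosen after their values were seen, belong to other organs or to the Reg family. Muc13, an intestinal mucin, read 3.70, 7.53 and 9.54 in the embryonic replicates, and Lypd8, a surface protein of the gut lining, 4.65, 8.78 and 10.79. Both were lowest on embryonic replicate 1. Alb, the liver's serum albumin, read 4.76, 10.51 and 4.68, and Afp, the fetal albumin, 4.51, 9.97 and 4.63. Alb and Afp were thus high on embryonic replicate 2 alone. Reg2, a secreted acinar lectin, read 3.37, 3.84 and 11.11, and stood high on embryonic replicate 3 alone. The enzyme Klk1 showed the second widest ADM range, with ADM values of 10.82, 8.97 and 7.10, after the cornified envelope gene Sprr2f at 4.56, 9.07 and 5.08.

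The labelled identities were checked against defining markers. Of 22 acinar enzymes measured, 20 had a mean above background in ADM culture and 22 in embryonic cells. Cpa1, carboxypeptidase A1, read ADM 12.70, 12.34 and 12.19 and embryonic 12.87, 12.83 and 12.97. The duct keratin Krt19 was also present in both, at ADM 10.01, 10.32 and 10.04 and embryonic 7.86, 7.65 and 7.96, while in adult acinar cells it averaged 6.92. Markers of endocrine, endothelial, immune and mesenchymal cells were above background in the embryonic samples, and their values are given after the acinar and ductal genes.

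The digestive enzymes were lower in ADM culture. Of 22 acinar enzymes measured, 16 (72.7%) were called lower and 0 higher, beside 4.88% of all genes called lower, and the list's median change was -2.33. Amy2b, a pancreatic amylase that digests starch, read ADM 5.19, 3.61 and 5.02 and embryonic 10.04, 9.48 and 10.24. Every ADM array lay below every embryonic array, with a change of -5.31 ± 0.33 (adjusted p = 1.18e-07). Prss1, a trypsinogen, read ADM 6.81, 6.72 and 6.69 and embryonic 12.16, 11.67 and 11.09, a change of -4.90 ± 0.25 (adjusted p = 1.63e-08). Its 3 ADM arrays lay close together, unlike those of the elastase Cela1, which read ADM 9.84, 8.37 and 7.10 and embryonic 12.44, 12.41 and 13.06 (-4.20 ± 0.48, adjusted p = 3.28e-05). The elastase Cela3b spread in the same way, at ADM 9.78, 8.61 and 7.86 and embryonic 12.47, 12.59 and 12.63 (-3.81 ± 0.34). For these elastases ADM replicate 1 was highest and ADM replicate 3 lowest, and the groups did not overlap.

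Other enzymes kept a signal close to the embryonic one. Cpa1 changed by -0.48 ± 0.18 (adjusted p = 0.101, 95% interval -0.88 to -0.08) and was not called. The chymotrypsinogen Ctrb1 read ADM 13.17, 13.08 and 13.11 and embryonic 13.23, 13.22 and 13.29, a difference of -0.13 ± 0.27 (95% interval -0.72 to 0.46). The highest value on any array was 13.67, so Ctrb1 lay near the top of the scale in both groups. The trypsinogen Prss2 changed by -0.76 ± 0.19 (adjusted p = 0.0149), short of the 1 required for a call. Ctrc, a chymotrypsin that cleaves trypsinogens, read ADM 4.14, 4.37 and 4.34 and embryonic 5.32, 5.09 and 9.45, and was high on embryonic replicate 3 alone. Its change of -2.34 ± 0.80 was not called (adjusted p = 0.0629), and it was -0.92 without that array. It was called under both housekeeping scalings, array weights and removal of dim genes, and without embryonic replicate 1 or 2. Close paralogs such as trypsinogens, amylases and elastases can share signal on an array, which was not tested.

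Among 23 granule and accessory proteins, 14 were called lower and 5 higher, and all 5 higher calls but Dpep1 were Reg genes. Serpini2, a serpin secreted by acinar cells, read ADM 4.82, 3.70 and 3.70 and embryonic 11.16, 10.93 and 11.11 (-6.99 ± 0.27, adjusted p = 1.91e-09). The cargo receptor Tmed11 read ADM 4.30, 3.55 and 3.21 and embryonic 10.07, 10.62 and 10.62 (-6.75 ± 0.27). Erp27, an ER protein of acinar cells, read ADM 8.12, 6.57 and 5.89 and embryonic 10.47, 10.54 and 10.46 (-3.63 ± 0.40). In these 3 genes the ADM arrays were far below the embryonic ones, and Serpini2 and Tmed11 were near background. The zymogen granule protein Zg16 changed by -5.88 ± 0.23 and the acinar water channel Aqp12 by -5.32 ± 0.27.

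Reg genes, secreted lectins that rise in the injured pancreas, went the other way. Reg3g read ADM 8.44, 7.75 and 7.18 and embryonic 3.60, 3.60 and 4.65 (3.84 ± 0.36, adjusted p = 6.09e-06), and the groups were well apart. Reg3a read ADM 10.43, 9.17 and 9.21 and embryonic 2.86, 2.09 and 7.78 (5.36 ± 1.04, adjusted p = 0.00232). Embryonic replicates 1 and 2 were below background, and embryonic replicate 3 was well above it. Reg3b read ADM 12.49, 12.21 and 12.41 and embryonic 8.77, 6.31 and 11.64 (3.46 ± 0.87, adjusted p = 0.0127), and 4.83 without embryonic replicate 3. Its call was lost when only the 6 arrays were fitted. Reg2 read ADM 11.29, 10.79 and 11.17, a range that held embryonic replicate 3, and its change of 4.98 ± 1.40 (adjusted p = 0.0241) lost the call without any 1 of the 5 other arrays, when only the 6 arrays were fitted and with a trended robust prior. In adult acinar cells Reg3a averaged 10.49 and Reg2 11.99. The 5 higher calls of this list became 3 without ADM replicate 3 or without embryonic replicate 1, and 2 when only the 6 arrays were fitted.

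The transcription factors that hold the acinar state differed in how far they were lower. Bhlha15 (Mist1), which sets up the secretory apparatus, read ADM 4.28, 3.94 and 4.25 and embryonic 7.56, 8.21 and 7.83 (-3.71 ± 0.19, adjusted p = 2.05e-08). Rbpjl, the acinar partner in the PTF1 complex, read ADM 5.21, 4.71 and 4.97 and embryonic 8.63, 9.02 and 8.21 (-3.66 ± 0.23, adjusted p = 1.18e-07). Ptf1a, the complex's DNA-binding subunit, read ADM 6.78, 5.75 and 5.21 and embryonic 8.04, 8.34 and 7.02 (-1.89 ± 0.36, adjusted p = 0.00223). The groups did not overlap in any of the 3, but for Ptf1a ADM replicate 1 came close to embryonic replicate 3. When its probe sets were averaged, Ptf1a changed by -1.35. Nr5a2, a nuclear receptor of acinar genes, read ADM 8.11, 8.08 and 8.02 and embryonic 8.66, 9.38 and 8.73. Its change of -0.85 ± 0.23 (adjusted p = 0.0192) was under the size needed for a call, which both housekeeping scalings gave. The secretory regulator Xbp1 differed by -0.01 ± 0.26 (95% interval -0.57 to 0.55) and Gata4 by 0.27 ± 0.18. In all, 4 of 11 acinar transcription factors were called lower, Nr0b2 among them at -1.16 ± 0.35, and 0 higher. Nr0b2 lost its call under both ribosomal scalings and without ADM replicate 2 or 3 or embryonic replicate 2 or 3.

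The folding and transport machinery of the endoplasmic reticulum (ER) was lower in part. Of 29 genes, 10 were called lower and 0 higher, with a median of -0.82. Ero1b, an ER oxidase of secretory cells, read ADM 6.64, 6.07 and 6.06 and embryonic 9.50, 9.90 and 10.14 (-3.59 ± 0.20, adjusted p = 5.51e-08). Derl3, a component of ER-associated degradation, read ADM 4.54, 4.20 and 4.13 and embryonic 6.93, 7.34 and 7.46 (-2.95 ± 0.37, adjusted p = 6.79e-05). Both were below the embryonic arrays on every ADM array. General chaperones were not called: Hspa5 (BiP) changed by -0.44, Hsp90b1 by -0.23 and Canx by -0.06. The count of 10 became 17 under either housekeeping scaling and 4 under centring on ribosomal protein medians.

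**Figure D2:**
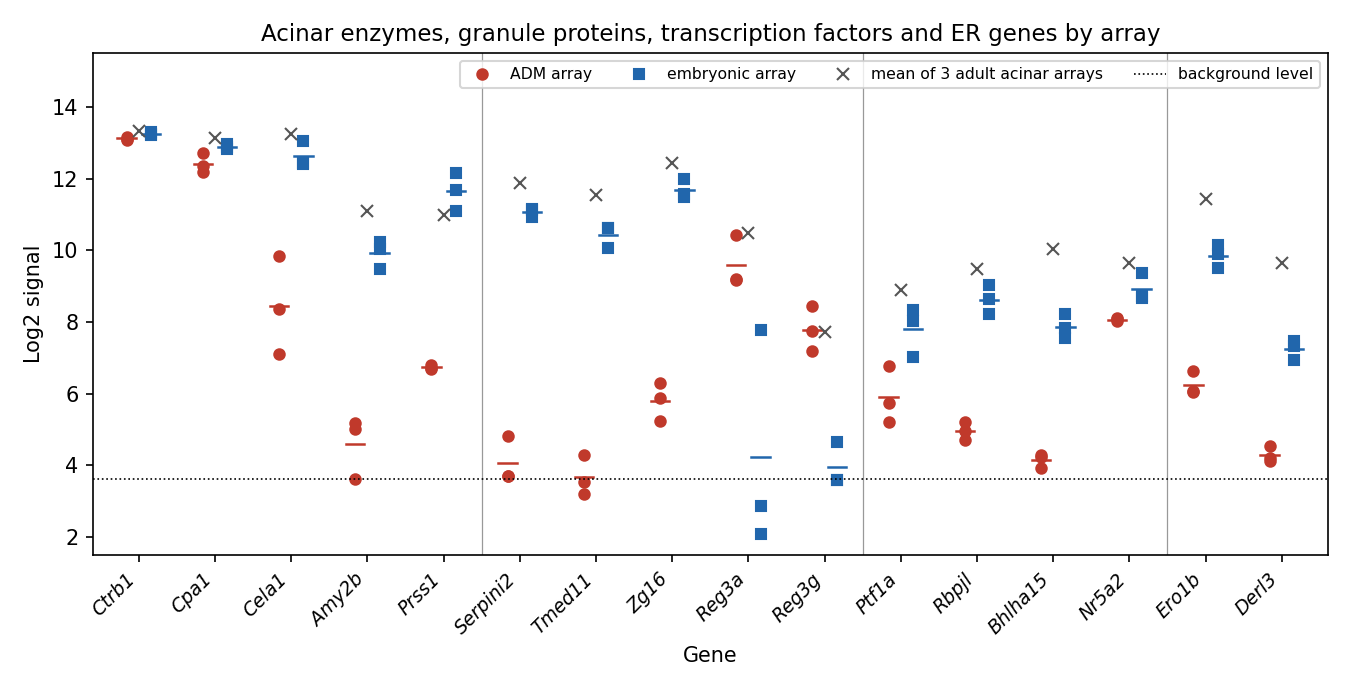
Log2 signal (vertical axis) of 16 genes of acinar cells on each ADM array (red circles) and each embryonic array (blue squares), with short lines for the group means, crosses for the mean of the 3 adult arrays and a dotted line for the background level. Vertical lines separate enzymes, granule proteins and Reg genes, transcription factors and ER genes; Ctrb1 and Cpa1 stay near the embryonic signal while Prss1, Serpini2 and Bhlha15 lie far below it, and Reg3a shows 1 embryonic array apart from the others.

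Duct genes were higher in ADM culture, but not all of them. Of 22 ductal markers, 10 (45.5%) were called higher and 3 lower, with a median of 1.16, beside 4.54% of all genes higher. Krt19 was higher by 2.30 ± 0.15 (adjusted p = 1.39e-07). Krt7, the other duct keratin, read ADM 9.57, 9.79 and 9.60 and embryonic 7.55, 7.59 and 7.77 (2.02 ± 0.14, adjusted p = 4.04e-07). Cftr, the chloride channel of the duct surface, read ADM 6.90, 6.22 and 6.61 and embryonic 2.89, 3.04 and 3.34, at least 7.77-fold higher (adjusted p = 3.3e-08). In each of these 3 genes all ADM arrays exceeded all embryonic arrays. The tight junction protein Cldn4 changed by 4.37 ± 0.22 and the keratin Krt20 by 3.98 ± 0.42. The water channel Aqp1 was lower, at ADM 3.18, 3.94 and 3.39 and embryonic 6.62, 6.68 and 6.71.

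Regulators shared by ducts and pancreatic progenitors did not follow the duct keratins. Sox9, needed in progenitors and kept in ducts, read ADM 7.86, 7.65 and 7.71 and embryonic 8.26, 8.61 and 8.32. Its difference of -0.66 ± 0.44 was not called (adjusted p = 0.415, 95% interval -1.62 to 0.30). Every ADM array lay below every embryonic array for Sox9. With only the 6 arrays fitted its adjusted p was 0.00947, at a size still under the 1 required. Pdx1, which specifies the pancreas, read ADM 4.37, 4.56 and 4.47 and embryonic 5.25, 5.73 and 5.36 (-0.98 ± 0.19, adjusted p = 0.00243) and missed the required size by little. It was called lower under cyclic loess, under both housekeeping scalings, and without ADM replicate 2 or embryonic replicate 1 or 3. Onecut1, a factor of duct and endocrine precursors, was lower by -1.19 ± 0.17 (adjusted p = 2.4e-04), a call that centring on ribosomal protein medians ended, while its relative Onecut2 read ADM 6.01, 5.67 and 6.15 and embryonic 3.52, 3.65 and 4.05 (2.20 ± 0.36). Among the 18 progenitor factors, 1 was called higher and 5 lower, and Hes1, Foxa2 and Hnf4a differed by 0.29, 0.39 and 0.81 without a call. Centring on ribosomal protein medians gave 3 higher and 3 lower.

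Endocrine genes were high in the embryonic samples and largely lower in ADM culture: 19 of 24 (79.2%) were called lower and 0 higher, with a median of -2.38. Neurog3, the factor that starts endocrine differentiation, read ADM 3.61, 2.69 and 3.33 and embryonic 8.50, 8.80 and 8.06, at least 28.5-fold lower (adjusted p = 1.75e-08). The ADM arrays were at or below background for it. The hormone gene Ghrl (ghrelin) read ADM 3.70, 3.5 and 3.01 and embryonic 9.96, 9.36 and 10.05, at least 72.0-fold lower (adjusted p = 2.54e-09). Somatostatin, Sst, read ADM 5.65, 5.14 and 5.52 and embryonic 11.23, 10.87 and 11.23 (-5.67 ± 0.27). The summed signal of the list was 11.89 to 12.04 on ADM arrays, 13.66 to 13.96 on embryonic arrays and 11.52 to 11.99 on adult arrays. In RNA of a whole sample, fewer cells of a type and less RNA per cell cannot be told apart.

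Imprinted and oncofetal genes, many of them most active in fetal tissue, were lower in 15 of 22 cases (68.2%) and higher in 1, with a median of -2.62. Their summed signal was 13.37 to 13.52 on embryonic and 10.31 to 10.39 on adult arrays, though 19 of the 22 were above background in adult cells. Igf2, the fetal growth factor, read ADM 3.75, 3.61 and 3.74 and embryonic 8.88, 8.70 and 8.89 (-5.12 ± 0.19, adjusted p = 1.91e-09). Gpc3, a cell surface proteoglycan, read ADM 3.92, 3.96 and 4.25 and embryonic 9.89, 9.87 and 9.57 (-5.73 ± 0.18, adjusted p = 4.05e-10). Dlk1, an imprinted Notch-like ligand, read ADM 3.23, 3.45 and 3.40 and embryonic 8.48, 8.04 and 8.12, at least 24.1-fold lower. All 3 were near or below background on every ADM array. Mest, another imprinted gene, kept a signal in ADM culture at 7.08, 7.45 and 6.33, against embryonic 10.32, 10.02 and 10.20 (-3.23 ± 0.34) and an adult mean of 4.46. The exception was Hmga2, a chromatin protein of fetal and tumor cells, at ADM 7.17, 6.84 and 7.65 and embryonic 5.25, 5.34 and 5.03 (2.01 ± 0.23, adjusted p = 2.95e-05). The adult mean of Hmga2 was 4.75.

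Genes of the stomach lining were among the largest gains of ADM culture. Of 29 gastric, trefoil and mucin genes, 15 (51.7%) were called higher and 5 lower. Tff1, a trefoil peptide of gastric pit cells, read ADM 11.80, 11.69 and 10.67 and embryonic 3.73, 3.19 and 3.26, at least 218-fold higher (adjusted p = 2.64e-09). Ctse, cathepsin E, read ADM 11.48, 11.57 and 11.62 and embryonic 4.51, 4.97 and 4.79 (6.80 ± 0.39, adjusted p = 5.51e-08). Muc5ac, the gastric surface mucin, read ADM 10.07, 10.25 and 7.31 and embryonic 2.90, 3.13 and 3.17, at least 48.2-fold higher, with ADM replicate 3 below the other ADM arrays. All 3 were at an adult mean of 4.32 or lower. Anxa10, an annexin of gastric epithelium, was at least 43.6-fold higher and the mucin glycosyltransferase Gcnt3 changed by 5.37 ± 0.31. Other stomach and gut genes showed no such gain: the gland mucin Muc6 differed by 0.00 ± 0.17 with both groups below background, and the intestinal factor Cdx2 by 0.08 ± 0.27.

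The lower calls of that list named other secretory proteins. Agr2, an ER disulfide isomerase of mucous cells, read ADM 3.48, 2.92 and 3.35 and embryonic 8.39, 9.08 and 8.15, at least 30.3-fold lower. Tff2 read ADM 9.67, 8.44 and 8.38 and embryonic 10.70, 10.61 and 12.33 (-2.38 ± 0.42). Muc13 was at least 9.88-fold lower (adjusted p = 0.018), a call lost without ADM replicate 1 or 3 or embryonic replicate 2 or 3 (adjusted p = 0.0571 without the last) and when only the 6 arrays were fitted. Tff3, at -2.17 ± 0.65, lost its call without any ADM array or embryonic replicate 3 (-1.34, adjusted p = 0.129). Its call was also lost under quantile normalization, a trended robust prior and removal of the median ribosomal deviation. The list's 5 lower calls became 3 without ADM replicate 1, ADM replicate 3 or embryonic replicate 3.

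Squamous and cornified envelope genes gained in part, with 13 of 34 called higher and 1 lower. Ivl, involucrin, read ADM 10.35, 10.81 and 10.05 and embryonic 3.59, 2.94 and 3.46, at least 110-fold higher (adjusted p = 8.13e-07). Sprr1a, a small proline-rich envelope protein, read ADM 11.61, 11.81 and 11.20 and embryonic 7.06, 7.47 and 6.93 (4.39 ± 0.22, adjusted p = 1.75e-08). The groups were far apart in both. The basal squamous regulator Trp63 was below background in both groups (0.13 ± 0.17), and the keratin Krt14 was at ADM 4.08, 3.47 and 3.87 and embryonic 5.03, 4.84 and 4.54, not called. Either housekeeping scaling reduced the 13 to 8.

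Prostaglandin synthesis was marked by Ptgs2 (COX-2), the inducible enzyme that makes prostaglandin H2. It read ADM 11.28, 11.37 and 11.24 and embryonic 3.52, 3.82 and 3.43, at least 205-fold higher (adjusted p = 3.6e-10). Pla2g4a, the phospholipase that frees arachidonic acid for it, read ADM 8.67, 8.76 and 8.76 and embryonic 5.63, 5.46 and 5.55 (3.18 ± 0.16). Hpgd, which inactivates prostaglandins, was lower, at ADM 5.55, 5.43 and 5.83 and embryonic 8.90, 8.88 and 8.73 (-3.23 ± 0.23, adjusted p = 4.44e-07). The spread within each group was small beside these differences. The list of 19 prostaglandin genes had 4 higher and 2 lower calls and a median of 0.07. The lower count was 4 under either housekeeping scaling.

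Receptors and ligands of the EGF family, the pathway that the added Tgf-alpha feeds, were higher in 8 of 16 cases and lower in 1. The receptor Egfr read ADM 9.11, 9.31 and 9.47 and embryonic 6.30, 5.93 and 6.09 (3.19 ± 0.22, adjusted p = 2.63e-07). Among ligands, Ereg read ADM 9.03, 8.69 and 9.07 and embryonic 3.84, 3.54 and 3.63 (5.26 ± 0.19, adjusted p = 1.85e-09). Hbegf read ADM 8.91, 9.25 and 8.76 and embryonic 5.60, 5.32 and 5.98 (3.34 ± 0.25). All ADM arrays exceeded all embryonic arrays in these 3. Tgfa itself changed by 1.69 ± 0.27, and the feedback inhibitor Errfi1 by 2.17 ± 0.18. The ligand gene Egf was lower, at ADM 3.32, 3.54 and 3.04 and embryonic 4.17, 4.83 and 5.29. Nrg1, called at 1.74 ± 0.51 (adjusted p = 0.0293), lost its call in 5 of the 6 fits that left out 1 array. With only the 6 arrays fitted its adjusted p was 9.44e-04. The other receptors Erbb2 and Erbb4 differed by 0.63 and -0.17 without a call.

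Targets of MAP kinase signalling divided. Of 34 output and immediate early genes, 13 were called higher and 0 lower, with a median of 0.80. Plaur, the urokinase receptor, read ADM 9.59, 9.75 and 9.26 and embryonic 5.52, 5.24 and 4.90 (4.31 ± 0.19, adjusted p = 4.54e-09), and Ier3 changed by 4.30 ± 0.20. The MAP kinase phosphatase Dusp4 read ADM 7.71, 7.36 and 7.62 and embryonic 4.13, 5.2 and 4.63 (2.91 ± 0.28). The feedback genes Dusp6, Spry2 and Spry4 were not called, at 0.43, 0.06 and -0.06, and neither were Jun (0.06 ± 0.26), Fos (0.83 ± 0.73) and Egr1 (0.45 ± 0.71). The count of 13 became 6 or 7 under the housekeeping scalings.

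Genes driven by YAP and TEAD, the effectors of the Hippo pathway, were higher in 11 of 26 cases and lower in 2. Ankrd1 read ADM 9.15, 9.0 and 9.51 and embryonic 4.09, 2.98 and 3.51, at least 48.5-fold higher (adjusted p = 7.84e-09). Ccn2 (CTGF) read ADM 10.96, 11.09 and 11.19 and embryonic 7.12, 6.84 and 7.21 (4.02 ± 0.27, adjusted p = 2.77e-07). On the brightest probe sets the groups lay well apart for Ankrd1 and Ccn2, but Ccn2 changed by 2.33 when its probe sets were averaged. F3, the coagulation starter tissue factor, changed by 4.0 ± 0.31. Amotl2, another target, differed by 0.12 and was not called. Centring on ribosomal protein medians raised the 11 to 20.

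Notch genes had 6 of 22 called lower and 0 higher, with a median of -0.24. The target Hey1 read ADM 4.77, 4.41 and 4.37 and embryonic 6.56, 6.20 and 6.33 (-1.85 ± 0.32, adjusted p = 9.82e-04). Lfng, which glycosylates Notch receptors, read ADM 5.95, 6.26 and 6.16 and embryonic 8.0, 8.35 and 7.5 (-1.83 ± 0.20). Notch2 differed by 0.05 ± 0.27 and Hes1 by 0.29 ± 0.45, and both overlapped between the groups. The 6 became 2 under either ribosomal scaling. Hedgehog and Wnt genes were called higher in 3 and lower in 5 of 32, among them Wnt7a at 2.71 ± 0.27 and the Wnt antagonist Sfrp1, at least 4.8-fold lower. Those counts became 8 higher under centring on ribosomal protein medians and 5 higher under removal of their median deviation. Centring on housekeeping medians gave 8 lower.

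In the TGF-beta and BMP list, 9 of 27 genes were higher and 5 lower. Inhba, the activin subunit, read ADM 8.99, 8.65 and 9.58 and embryonic 4.34, 4.30 and 3.75 (4.94 ± 0.59, adjusted p = 4.84e-05). The ligand Tgfb1 read ADM 8.96, 8.57 and 8.98 and embryonic 6.34, 6.58 and 6.4 (2.40 ± 0.29), whereas Tgfbi, a secreted target, was lower at -2.68 ± 0.20. The ligands divided, since Bmp7, Bmp4 and Tgfb2 were lower, at -2.29 ± 0.24, -1.40 ± 0.41 and -1.38 ± 0.20. Centring on ribosomal protein medians gave 15 higher and 3 lower.

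Proteases that cut matrix and their regulators were higher in 16 of 29 cases (55.2%) and lower in 4, with a median of 1.22. Mmp7, matrilysin, read ADM 11.50, 11.27 and 11.59 and embryonic 4.31, 4.59 and 4.72 (6.91 ± 0.21, adjusted p = 4.05e-10). Its change was 3.61 when its probe sets were averaged, so they did not agree in size. Mmp3, stromelysin, read ADM 7.28, 7.12 and 8.44 and embryonic 2.87, 2.99 and 2.58, at least 15.9-fold higher. The inhibitor Timp1 read ADM 11.11, 10.68 and 11.24 and embryonic 6.38, 6.18 and 6.38 (4.70 ± 0.31). On the brightest probe sets, no ADM array of these 3 came near an embryonic one. Adamts5, an aggrecan-cutting protease, was lower at ADM 3.32, 3.51 and 3.33 and embryonic 7.18, 6.15 and 7.11. The adult mean of Mmp7 was 4.58.

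Integrins and laminins, which bind cells to matrix, were higher in 10 of 28 cases and lower in 2. Itga2, a collagen receptor subunit, read ADM 10.23, 10.77 and 10.23 and embryonic 5.89, 6.14 and 6.12 (4.36 ± 0.26, adjusted p = 8.77e-08). Itga3, a laminin receptor subunit, changed by 4.15 ± 0.23, and Itgb6 was at least 8.36-fold higher. Among 41 junction genes, 15 were called higher and 2 lower, and E-cadherin, Cdh1, read ADM 10.93, 11.15 and 11.07 and embryonic 9.89, 10.18 and 10.06 (1.01 ± 0.18, adjusted p = 0.00134). Its size was close to the limit, and the call was lost under cyclic loess, both housekeeping scalings and array weights, and without ADM replicate 2 or 3 or embryonic replicate 1. Housekeeping scaling reduced the 15 to 8 and raised the 2 to 5 or 4, while centring on ribosomal protein medians raised the 15 to 25.

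Vimentin, Vim, a filament of mesenchymal cells, averaged 10.31 ± 0.44 (SD) in ADM culture and 11.18 ± 0.15 (SD) in embryonic cells, with no overlap of arrays (-0.87 ± 0.19, adjusted p = 0.00623), and was not called for size, except under both housekeeping scalings and without ADM replicate 3. Of 22 genes of epithelial-mesenchymal transition, 5 were higher and 3 lower. The integrin subunit Itga5 read ADM 9.15, 8.16 and 8.88 and embryonic 6.72, 6.18 and 6.74 (2.18 ± 0.35), with ADM replicate 2 the lowest of its group. The higher count was 8 without ADM replicate 2, 8 or 11 under the ribosomal scalings, and the lower count 1 under centring on ribosomal protein medians. The annexin and S100 list had 8 of 24 higher and 1 lower, with the annexin Anxa3 at 2.72 ± 0.35, and its 8 became 15 under that centring.

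**Figure D3:**
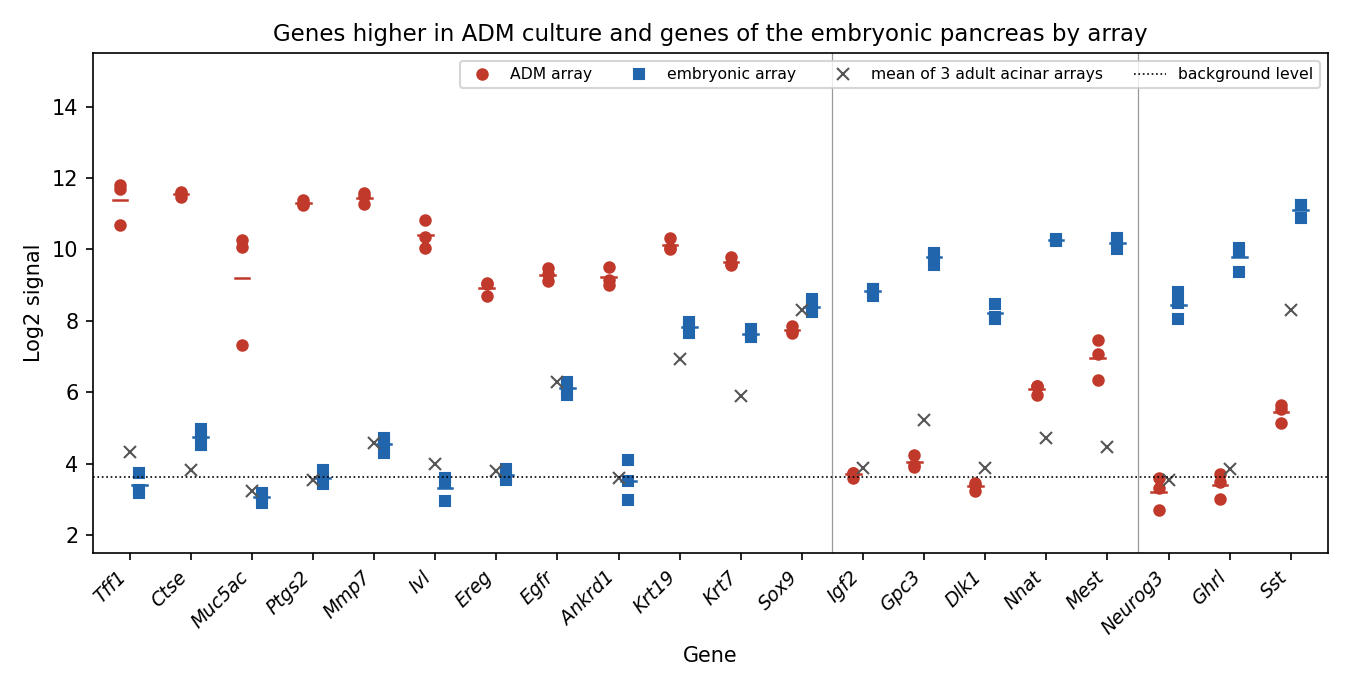
Log2 signal (vertical axis) of 20 genes on each ADM array (red circles) and each embryonic array (blue squares), with short lines for group means, crosses for the mean of the 3 adult arrays and a dotted line for the background level. The first block holds genes of gastric, prostaglandin, protease, EGF receptor, YAP and duct lists, the second imprinted and oncofetal genes and the third endocrine genes; Tff1 and Ptgs2 lie at background in embryonic cells, Igf2 and Dlk1 near or below it in ADM culture, and Sox9 differs least.

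Several of the genes highest in ADM culture carry, in their promoters, the letters TGANTCA to which the AP-1 factors FOS and JUN bind. Promoters were taken from RefSeq (GRCm38.p6) as 250 bases before to 50 after each gene's start. Of the 93 named genes called higher, 62 had such a sequence and 14 of these held the letters. The stretches around the match are shown for 7 of them, chosen after the matches were seen to let a reader compare the sites, with the AP-1 letters in capitals.
Ivl, chr3:92573820-92573876, minus strand: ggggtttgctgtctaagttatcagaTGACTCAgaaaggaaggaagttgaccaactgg
Mmp7, chr9:7692002-7692058, plus strand: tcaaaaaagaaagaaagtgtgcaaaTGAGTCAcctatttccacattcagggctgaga
Mmp3, chr9:7445751-7445807, plus strand: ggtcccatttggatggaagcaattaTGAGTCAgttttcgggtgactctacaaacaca
Sprr1a, chr3:92485966-92486022, minus strand: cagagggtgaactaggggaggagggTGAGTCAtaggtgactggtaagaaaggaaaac
Plaur, chr7:24462389-24462445, plus strand: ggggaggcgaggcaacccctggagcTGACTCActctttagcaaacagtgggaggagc
Lif, chr11:4257318-4257371, plus strand: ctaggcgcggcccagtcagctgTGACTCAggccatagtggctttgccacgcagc
Il11, chr7:4778208-4778264, minus strand: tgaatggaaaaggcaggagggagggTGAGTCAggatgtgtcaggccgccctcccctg

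The match began at position -116 from the gene start in Ivl, -63 in Mmp7, -46 in Mmp3, -116 in Sprr1a, -69 in Plaur, -228 in Lif and -98 in Il11. Sprr1a held another match at -146. Over all genes, 12.4% of the 774 promoters of genes called higher held the AP-1 letters, which read the same on both strands, beside 8.39% of all 16918 promoters and 7.63% of the 799 of genes called lower. The TEAD letters GGAATG, on either strand, were in 15.9% of the higher, 15.4% of all and 19.4% of the lower. The E-box CACCTG was in 26.0%, 22.3% and 26.0%, and the nuclear receptor NR5A letters TCAAGGTCA in 0.258%, 0.366% and 0.25%. None of the 4 motifs contains another. A match is a description of the letters and shows no binding.

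Secreted signals of injury were higher in ADM culture, with 17 of 44 chemokines, cytokines and acute-phase genes called higher and 1 lower, or 3 lower under either housekeeping scaling. Cxcl16 read ADM 9.26, 8.77 and 9.20 and embryonic 5.17, 4.62 and 5.60 (3.95 ± 0.24, adjusted p = 1.1e-07). Lif, a cytokine of the interleukin 6 family, read ADM 7.89, 7.68 and 8.16 and embryonic 4.25, 4.06 and 4.28 (3.71 ± 0.21, adjusted p = 4.45e-08). Il11, of the same family, was at least 8.46-fold higher. The groups did not overlap in these, whereas Il6 was at or below background in the mean of both groups, at ADM 3.76, 3.54 and 3.33 and embryonic 2.83, 2.74 and 3.11. Interferon response and antigen presentation genes were lower in 5 of 27 and higher in 0, with Psmb10, an immunoproteasome subunit, at -2.23 ± 0.20. Irf7, an interferon regulatory factor, was at least 1.83-fold lower (adjusted p = 0.0373). It lost its call without any 1 of 5 arrays, when only the 6 arrays were fitted, under quantile normalization and under both ribosomal scalings. This count ranged from 2 to 11 under the scalings and from 3 to 8 when 1 array was left out, the 8 without embryonic replicate 2.

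Genes of antioxidant defence under NRF2 were higher in 12 of 23 cases (52.2%) and lower in 2. Gclc, which limits glutathione synthesis, read ADM 9.38, 9.58 and 8.80 and embryonic 6.02, 6.21 and 5.79 (3.25 ± 0.25, adjusted p = 7.8e-07). Heme oxygenase, Hmox1, changed by 2.47 ± 0.41, and the cystine transporter Slc7a11 by 3.39 ± 0.46. Glycolysis genes were higher in 9 and lower in 2 of 23, with pyruvate kinase Pkm at ADM 11.08, 11.43 and 11.23 and embryonic 9.29, 9.40 and 9.49 (1.85 ± 0.15, adjusted p = 1.7e-06). The 9 became 4 under either housekeeping scaling. Of 29 oxidative phosphorylation genes, 0 were called, the median was -0.39, and 8 or 7 were called lower under the housekeeping scalings. The liver-type glucose transporter Slc2a2 was at least 9.24-fold lower.

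Smaller metabolic lists had calls in both directions, beside 4.54% of all genes called higher and 4.88% lower. Amino acid and serine synthesis genes were higher in 3 (11.1%) and lower in 2 (7.41%) of 27. Cholesterol genes were higher in 1 (4.76%) and lower in 3 (14.3%) of 21, with Insig1, which holds sterol regulators in the ER, at -2.74 ± 0.37. Lysosomal genes were higher in 2 (8.33%) and lower in 1 (4.17%) of 24. Each count varied by over 1.5 times with scaling, the lysosomal 2 to 11 and the amino acid 3 from 1 to 9. The latter was also 5 without embryonic replicate 2. The cholesterol 3 varied from 1 to 6.

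Few cell cycle genes were called between the groups, both of which stood above adult cells. Of 25 mitosis genes, 2 (8%) were called lower, beside 4.88% of all genes, with a median of -0.53. Of 25 DNA replication genes 0 were called, with a median of -0.18. Summed mitosis signals were 11.35 to 12.03 on ADM and 12.15 to 12.41 on embryonic arrays. For replication they were 11.58 to 11.87 and 11.98 to 12.09. Nusap1, a mitosis gene called at -1.39, lost its call only under centring on ribosomal protein medians. Mki67, the proliferation marker Ki-67, read ADM 7.40, 6.47 and 7.28 and embryonic 7.95, 8.31 and 7.93, and its adult mean was 5.07. Its change of -1.01 ± 0.31 (adjusted p = 0.0405) lost its call under the replicate block, array weights and both ribosomal scalings, and without any of 5 arrays, where it ranged from -1.19 to -0.72 over the 6 fits. The replication helicase Mcm2 differed by -0.33 ± 0.19 (95% interval -0.75 to 0.09) and Top2a by -0.74 ± 0.29. Under either housekeeping scaling, 7 mitosis and 3 replication genes were lower. The 2 lower mitosis calls became 0 under centring on ribosomal protein medians and 1 under removal of their median deviation.

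Cell cycle inhibitors and p53 targets were higher in 11 of 31 cases and lower in 3. Cdkn1a (p21) read ADM 11.02, 11.25 and 11.12 and embryonic 9.49, 10.17 and 9.37 (1.45 ± 0.22, adjusted p = 3.41e-04). Cdkn2b (p15) read ADM 6.37, 7.08 and 6.83 and embryonic 4.47, 4.37 and 4.91 (2.18 ± 0.19, adjusted p = 3.1e-06). Cdkn2a (p16 and p19) read ADM 4.43, 4.35 and 4.91 and embryonic 3.37, 3.39 and 3.62, at least 1.92-fold higher. It lost its call under both housekeeping scalings and without ADM replicate 3. The imprinted inhibitor Cdkn1c (p57) went the other way, at -2.54 ± 0.21. All ADM arrays lay on 1 side of all embryonic arrays in these 4 genes. Housekeeping scaling gave 6 higher and 7 lower. In the RAS and RAF list, 2 of 18 were higher, Map2k1 at 1.59 ± 0.18 and Rasa2 at 1.03 ± 0.30, and the 2 became 7 or 4 under the ribosomal scalings. Rasa2 lost its call under both housekeeping scalings, quantile normalization, cyclic loess and array weights, and without each of 5 arrays.

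The series' title concerns epigenetic change, and few chromatin regulators were called at the RNA level. Of 20 genes of polycomb repressive complex 1 (PRC1), 1 (5%) was called higher, and of 12 of PRC2, 1 (8.33%). These shares are not below the 4.54% of all genes called higher. Rnf2, the ubiquitin ligase of PRC1, read ADM 7.93, 7.79 and 7.91 and embryonic 8.07, 7.61 and 7.94. Its difference was 0.00 ± 0.17 (95% interval -0.36 to 0.37), and both groups stood above the adult mean of 6.62. Bmi1, a PRC1 partner of Rnf2, differed by 0.27 ± 0.26 near background. Ezh2, the methyltransferase of PRC2, read ADM 7.90, 8.16 and 7.81 and embryonic 7.79, 7.58 and 7.63 (0.29 ± 0.23, 95% interval -0.22 to 0.80).

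The called members were Pcgf5, a subunit of variant PRC1, at 1.2 ± 0.18, and Epop, a PRC2 accessory subunit, at least 3.27-fold higher. Pcgf5 lost its call under both housekeeping scalings. The PRC1 count was 7 or 3 under the ribosomal scalings and 3 without embryonic replicate 3, and the PRC2 count 3 under centring on ribosomal protein medians. In the fit of the values as deposited, 0 of 13 DNA methylation enzymes, 0 of 28 histone deacetylases and demethylases and 0 of 36 Hox genes were called. Of all genes, 9.43% were called in either direction. Of the Hox genes, 24 were at or below background in both groups. Housekeeping medians gave 3 lower DNA methylation enzymes and ribosomal protein medians 3 higher deacetylases or demethylases.

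Markers of cells other than acinar and duct cells moved with the comparison. Endothelial markers were lower in 14 of 18 cases (77.8%), with a summed log2 signal of 10.02 to 10.21 on ADM, 11.60 to 11.70 on embryonic and 9.73 to 9.93 on adult arrays. Cdh5, VE-cadherin, read ADM 7.32, 7.60 and 7.05 and embryonic 10.05, 10.05 and 10.07 (-2.73 ± 0.17). Of the endothelial markers, 17 stayed above background in ADM culture, and the defining Pecam1 and Kdr were lower by -2.89 ± 0.20 and -2.43 ± 0.17. Their part in the other results was not tested.

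Fibroblast and stellate markers were lower in 13 of 23 cases and higher in 1, with sums of 11.79 to 13.01 on ADM, 13.15 to 13.92 on embryonic and 10.57 to 10.65 on adult arrays. Lum, a collagen-binding proteoglycan, read ADM 7.03, 5.22 and 6.42 and embryonic 9.86, 8.96 and 9.67 (-3.27 ± 0.37). The collagen chain Col1a1 read ADM 8.82, 7.57 and 8.79 and embryonic 9.55, 8.97 and 9.03, not called, and Pdgfrb was higher at 1.22 ± 0.28. ADM replicate 2 was the lowest for Lum and Col1a1, as it was for Itga5. Both groups held 21 or more of the 23 above background, while smooth muscle markers were lower in 7 of 14 and Acta2 differed by 0.20 ± 0.38. The part of these markers in the matrix genes above was not tested.

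Macrophage and lymphoid markers were lower in 11 of 24 cases and higher in 1, with sums of 10.28 to 10.84 on ADM and 11.23 to 11.76 on embryonic arrays. The signalling adaptor Tyrobp read ADM 7.10, 5.94 and 6.24 and embryonic 9.47, 8.97 and 9.25 (-2.80 ± 0.25). The higher gene was Cd14, a co-receptor for bacterial lipopolysaccharide, at ADM 8.26, 7.64 and 8.43 and embryonic 4.67, 4.12 and 4.65 (3.63 ± 0.26). Granulocyte genes showed some of the largest losses: S100a9, a calcium-binding protein of neutrophils, read ADM 3.18, 3.32 and 3.01 and embryonic 10.42, 9.91 and 9.46, at least 79.4-fold lower, and S100a8 was at least 82.5-fold lower. Embryonic replicate 1 was highest for both, and every ADM array was at background or close to it. In that list 9 of 20 were lower and 2 higher (1 without ADM replicate 1 or 3 or embryonic replicate 2 or 3), with sums of 10.12 to 10.55 on ADM, 11.74 to 12.70 on embryonic and 7.84 to 8.02 on adult arrays. Lcn2, also in the acute-phase list, was among the higher, at 3.89. Of the 20 members, 5 were above background in ADM culture, 15 in embryonic cells and 6 in adult cells. The stefins Stfa1, Stfa3, Stfa2l1 and Cstdc4, close paralogs whose probes may share signal, followed S100a9, Stfa1 at -6.94 ± 0.29.

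Genes of liver and intestine were called lower in 7 of 25 cases and higher in 0, and depended on the embryonic array. Fabp1, a fatty acid carrier of liver and gut, read ADM 2.61, 2.60 and 3.03 and embryonic 7.93, 10.91 and 11.73, at least 95-fold lower (adjusted p = 3.44e-06). Apoa4 read ADM 3.22, 3.42 and 3.15 and embryonic 6.86, 10.16 and 11.17. Both were at background in ADM and adult arrays and lowest in embryonic replicate 1. Alb was not called with all arrays, with a change of -2.89, which was -0.96 without embryonic replicate 2. It was called under both housekeeping scalings, with array weights, and without embryonic replicate 1 or 3. The count of 7 became 13 without embryonic replicate 1 and 12 under either housekeeping scaling, and the list's sums were 12.52, 13.95 and 14.14 on the embryonic replicates against 10.30 to 11.15 on ADM arrays.

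Mesothelial markers were lower in 6 of 12 cases and higher in 2, with sums of 11.30 to 11.59 on ADM and 10.02 to 10.71 on embryonic arrays. The defining Upk3b read ADM 3.37, 3.25 and 3.56 and embryonic 9.14, 8.2 and 8.37, at least 30.9-fold lower, with the ADM arrays below background. Msln (mesothelin), which pancreatic tumors also express, read ADM 10.58, 10.66 and 10.33 and embryonic 6.71, 5.58 and 6.38 (4.30 ± 0.23, adjusted p = 3.3e-08). The 2 higher members of this list were Msln and the duct keratin Krt19, which held most of the ADM sum. The list's median change was -1.06, with 7 members above background in ADM culture and 12 in embryonic cells. Neural markers were lower in 4 of 16 and higher in 1, 8 lower under the housekeeping scalings, with the axonal Gap43 at least 13.4-fold lower, and sums of 8.28 to 8.46 on ADM and 9.48 to 9.60 on embryonic arrays. Erythroid genes were lower in 4 of 13, a count from 1 under centring on ribosomal protein medians to 6 under either housekeeping scaling, with overlapping sums of 8.89 to 9.08 on ADM and 8.51 to 9.28 on embryonic arrays.

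Genes of the Y chromosome separated the groups. Eif2s3y read ADM 3.52, 3.49 and 3.40 and embryonic 6.48, 5.83 and 6.11, at least 5.74-fold lower, with an adult mean of 3.93. Kdm5d and Uty were below background on all ADM arrays and above it on all embryonic arrays. Xist, the RNA of the inactive X chromosome, was present in both, at ADM 9.86, 9.88 and 10.02 and embryonic 9.37, 8.95 and 8.73. The labels give no sex, but these Y genes stood above background in the embryonic group and not in ADM culture. The part of sex in other differences was not tested.

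**Figure D4:**
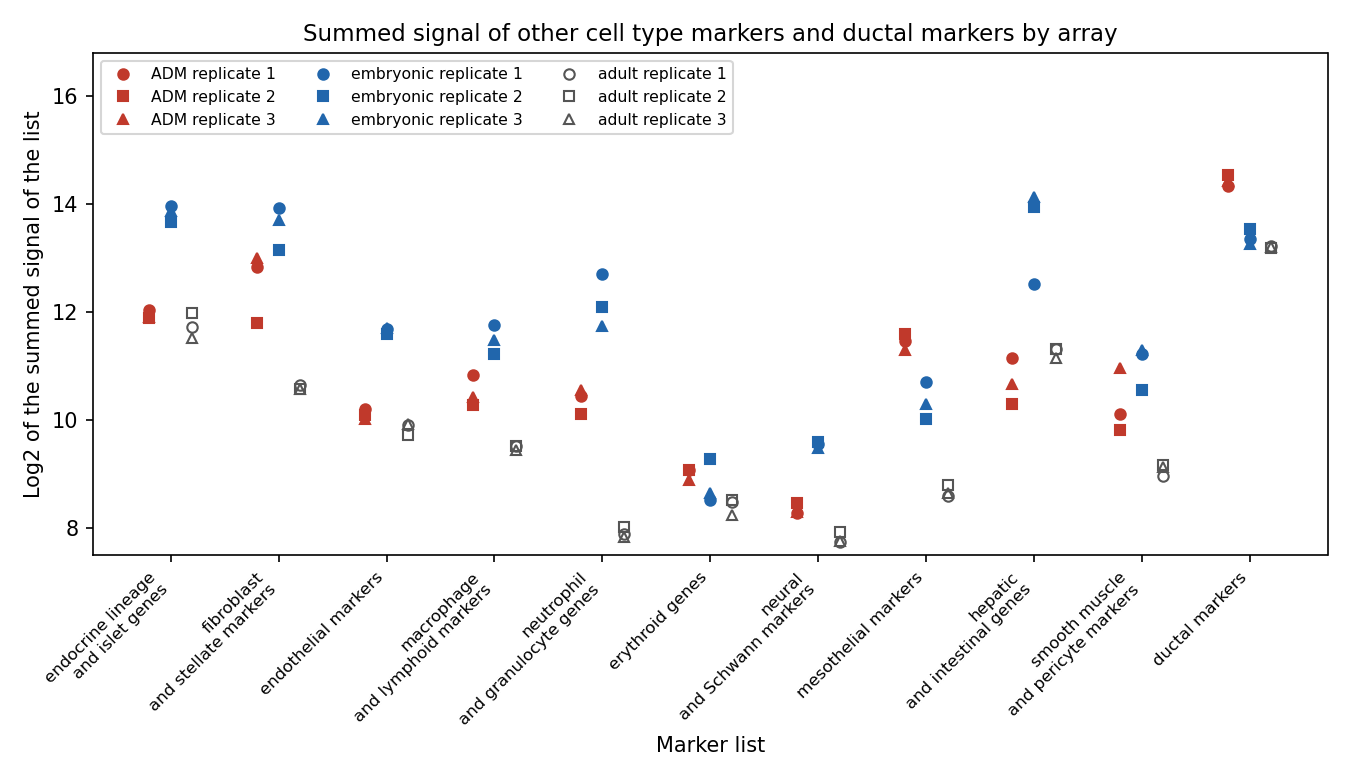
Log2 of the summed signal of each marker list (vertical axis) on every ADM (red), embryonic (blue) and adult (open grey) array, with a marker shape for each replicate. Endocrine, fibroblast, endothelial, macrophage, neutrophil, neural and hepatic or intestinal sums are higher on the embryonic arrays, and the smooth muscle and erythroid sums overlap. The mesothelial and ductal sums are higher on the ADM arrays, the mesothelial one mostly through Msln and Krt19. Embryonic replicate 1 is lowest for hepatic and intestinal genes.

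Other large differences fell outside the lists. Slc4a11, a membrane transporter, read ADM 9.34, 9.63 and 9.53 and embryonic 3.44, 3.39 and 3.33, at least 58.9-fold higher (adjusted p = 6.32e-11). Mucl3, a mucin-like protein, read ADM 10.15, 9.03 and 8.02 and embryonic 3.51, 3.61 and 3.85 (5.41 ± 0.43). The ADM arrays agreed closely for Slc4a11 and spread for Mucl3. Ptn, the growth factor pleiotrophin, read ADM 3.95, 3.35 and 3.97 and embryonic 10.09, 9.69 and 10.05 (-6.19 ± 0.20, adjusted p = 5.69e-10). Gal, the neuropeptide galanin, read ADM 4.04, 3.97 and 3.89 and embryonic 10.03, 9.56 and 10.75 (-6.15 ± 0.25), with an adult mean of 11.94. Gal was thus high in both freshly isolated groups, whereas Ptn had an adult mean of 3.59.

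**Figure D5:**
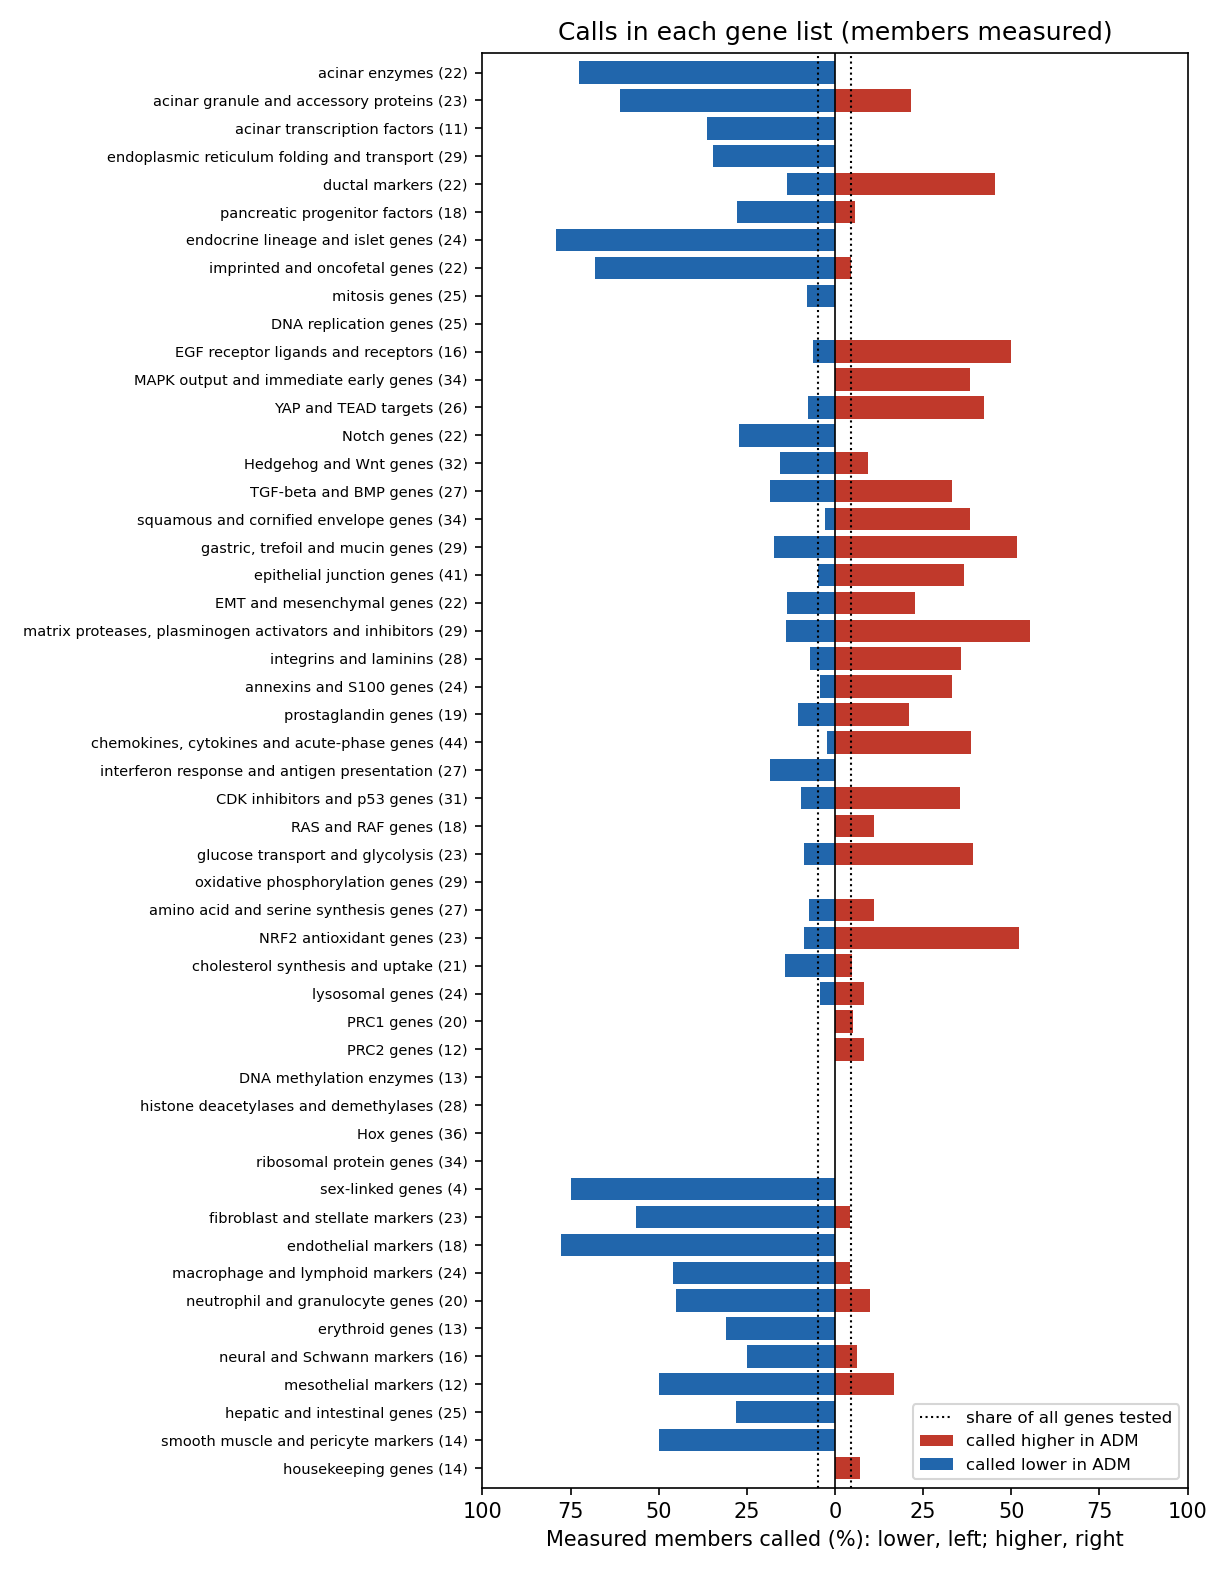
Share of the measured members of each of 51 gene lists called lower (blue, to the left) or higher (red, to the right) in ADM culture, in percent, with the number measured in parentheses and dotted lines at the shares of all genes, 4.88% lower and 4.54% higher. Acinar, endocrine, imprinted and endothelial lists extend far to the left, protease, gastric, NRF2 and EGF receptor lists to the right, and replication, oxidative phosphorylation, Hox and ribosomal protein lists have no call.

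The 14 housekeeping genes had a median change of 0.34 and 1 call, Pgk1 at 1.35 ± 0.17 (lost under both housekeeping scalings), and the 34 ribosomal protein genes a median of -0.16 and 0 calls. These control lists point in opposite directions as deposited, and 6 housekeeping genes were called higher under centring on ribosomal protein medians. Scaled on itself, the housekeeping list had a median of -0.04 or -0.01. The ribosomal list had 0.02 when its median deviation was removed, but 0.385 under centring on array medians, farther from 0 than as deposited.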

How the data were processed

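Biotin-labelled total RNA of 12 mouse samples, 3 in each of 4 groups, was measured on Affymetrix arrays. The deposited log2 signals per probe set, processed by the authors, were used unchanged. The normalization is not given in the sources used here, and a base of 2 was taken from the range of values, 1.56 to 13.67. Of 41345 probe sets, 23521 carried 1 symbol in the platform annotation, 1814 several and 16010 none, and the first gave 22180 genes. Of these 23521, 23328 were matched to the reference, with 0 symbols changed. For 1082 genes with over 1 probe set the brightest was used.

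A mean per group was fitted to all 12 arrays with the R package limma, version 3.58.1, under R version 4.3.3 (moderated by eBayes, two-sided, 8 residual and 5.02 prior degrees of freedom) and checked on simulated data. Gene lists (51) came from general knowledge, and the members, lists and background level were chosen with earlier results of these data known. Genes named were fixed ones (some are not reported here), the 12 largest and 12 smallest called changes with non-overlapping arrays, predicted genes and receptors left out, and up to 5 called members per list by size. Other genes were chosen after their values were seen. The number of arrays limits the precision. Alternatives were other scalings and normalizations, probe set rules, filters, weights, thresholds, a replicate block and leaving out each array.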

Additional observations from a re-analysis of the deposited data

How the results depend on the processing

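Called genes numbered 2091 and kept within 1.5 times under the fit of only the 6 arrays (2104), quantile normalization, cyclic loess, removal of dim genes, probe set means, array weights and a trended robust prior. With the replicate number as a block, 2091 genes were called, 1000 higher and 1091 lower. The correlations of same-numbered deviations were 0.027, 0.128 and -0.0265. ADM replicates 1 and 2 correlated best with the embryonic array of the same number, and ADM replicate 3 with embryonic replicate 1. With 3 arrays per group, these values cannot decide whether the numbers pair the samples. Leaving out each array gave 1974 to 2100 calls, 970 to 988 higher and 991 to 1112 lower. Without a fold minimum there were 3897 calls, 2025 higher and 1872 lower, and with a minimum of 2 on the log2 scale 629, 263 higher and 366 lower. Centring on housekeeping medians gave 575 higher and 2021 lower, and on ribosomal protein medians 3675 calls, 3107 higher and 568 lower. Removing the median housekeeping deviation, like both ribosomal scalings chosen after seeing the data, gave 595 higher and 1928 lower. Of 203 named genes called, 29 lost the call under at least 1 setting, 13 of them when an array was left out, 3 uncalled ones gained it and 0 reversed. The cause was not tested. Genes at background have only a bound on their change.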

Other observations

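Among probe sets outside the gene tests, 93 of the 16010 without a symbol were higher and 132 lower (1.41% called), and 32 of the 1814 with several symbols were higher and 76 lower (5.95%).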
